A study of Homo sapiens with 20 samples.

Results

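The long intergenic noncoding RNAs described here are the rows whose symbol is LINC followed by a number, in read counts from the human embryonic stem cell line H1. Of 54435 rows, 268 carried such a symbol (LINC00261 was left out), and 47 of these had at least 50 counts summed over 12 libraries. The members were chosen by this summed raw count, which is therefore a description and not a finding. The members just inside that limit were LINC00251 and LINC00628 with 54 counts each, LINC00857 with 53 and LINC00639 with 51. Just outside it were LINC00514, LINC00648 and LINC00662 with 48 counts each and LINC00052 with 44. A further 162 symbols had counts below the limit, these included, and 59 had none.

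LINC symbols with a number were given to RNAs that are transcribed between coding genes and had no established function when they were named. Such RNAs are usually spliced and polyadenylated like messenger RNAs, are often low in abundance and often differ between cell types. Some act on genes beside them, others bind proteins elsewhere in the cell, and several transcripts first named this way were later found to encode small proteins and were renamed.

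Poly(A) RNA was sequenced in 6 groups of 2 libraries. The day 4 groups were DIGIT KO1, DIGIT KO2 and wild-type (WT) H1 cells grown in RPMI medium to which B27 supplement and Activin A at 50 ng/ml were added. Activin A is a TGF-beta family ligand that is used to drive these cells towards endoderm. The day 0 groups were KO1, KO2 and WT cells kept undifferentiated in mTeSR1 medium without feeder cells. DIGIT is a long noncoding RNA gene beside the homeobox gene GSC. KO1 and KO2 are 1 clone each, so a difference between a clone and WT holds for that clone. None of the rows carried the name DIGIT or GSC-DT, so DIGIT itself could not be followed in these counts and the knockouts rest on the labels.

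Libraries held 9942016 to 21394547 counts, and the 47 members together took 0.0224% to 0.0266% of each. The floor of 3 counts corresponded to 0.140 to 0.302 CPM (counts scaled to a common library size with TMM factors) in a library. KO1 day 0 replicate 2 stood apart. Between the replicates of KO1 at day 0, the chi-square per gene was 21.8, against 1.89 to 3.88 in the other groups. Over the members it was 4.57, against 0.981 to 1.55. Without that library, 17 of the 20 members called between days in KO1 kept their call, and LINC00265, LINC00630 and LINC00663 lost it. Among called members with more than 3 counts in each group, the fold moved by over 1.5 times in LINC00341 (log2 2.78, against 2.099 with all libraries) and LINC00638 (1.91, against 1.22). No member was called in KO1 against WT at day 0 with or without it. The summed level of 7 primitive streak and endoderm markers was 5401 to 5496 CPM in KO1, 1012 to 1254 CPM in KO2 and 4700 to 5219 CPM in WT at day 4, and 5.71 to 13.3 CPM in the 6 day 0 libraries. CER1 made up most of that sum, at a mean of 4486 CPM in KO1, 865 CPM in KO2 and 4027 CPM in WT. CXCR4 was lower in KO1 (55.6 CPM) than in WT (151 CPM), and MIXL1 higher (145 CPM in KO1, 59.6 CPM in WT). No gene of that list was at 0 counts in any group. The 5 mesoderm markers, mostly PDGFRA, summed to 37.0 to 40.1 CPM in KO1, 9.03 to 10.1 CPM in KO2 and 14.5 to 16.5 CPM in WT at day 4. The 5 neuroectoderm markers, mostly NES, summed to 1043 to 1092 CPM in KO1, 1006 to 1033 CPM in KO2 and 790 to 819 CPM in WT at day 4. At day 0 they summed to 311 to 387 CPM. By mean CPM at day 4, no gene of that list other than NES was higher in both clones than in WT. The 5 pluripotency markers summed to 2524 to 3005 CPM at day 4 and 3380 to 3736 CPM at day 0. LIN28A made up most of that sum, and its genes went both ways. NANOG averaged 47.3 CPM in KO1, 61.7 CPM in KO2 and 46.5 CPM in WT at day 4 and 25.5, 22.2 and 25.7 CPM in the same lines at day 0, while SOX2 averaged 77.8, 167 and 112 CPM at day 4 and 275, 223 and 216 CPM at day 0. In such bulk RNA, fewer cells of a type and less RNA per cell cannot be told apart, which holds for every result below.

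All 47 members matched the RefSeq gene table, 31 by their present symbol and 16 by an older name. The table lists 39 of them as long noncoding and 8 as protein-coding. LINC00116 is now MTLN, which codes for mitoregulin, a small protein of the inner mitochondrial membrane. LINC00493 is now SMIM26, which codes for a small mitochondrial membrane protein. The other coding entries are ANKRD40CL (LINC00483), BRD3OS (LINC00094), SPACA6 (LINC00085), C20orf204 (LINC00176), LASP1NB (LINC00672) and SYNE3 (LINC00341). The counts hold a separate row named SYNE3, the gene of the nuclear envelope protein nesprin-3, so reads of that locus were divided between 2 rows in a way that is not given in the sources used here. Among the noncoding entries, LINC00657 is NORAD, LINC00263 is OLMALINC, LINC00152 is CYTOR, LINC00338 is SNHG20, LINC00277 is EWSAT1, LINC00638 is VESTAR, LINC00476 is ERCC6L2-AS1 and LINC00637 is PPP1R13B-DT. The bodies of 10 members overlapped a coding gene in the table. The strand setting of the counting is not given in the sources used here, so reads of an overlapping partner on the other strand may be part of a member's count.

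By their entries in the RefSeq table, 2 members enclose microRNA genes. The locus of LINC00085 on chromosome 19 holds MIR99B, MIRLET7E and MIR125A, and that of LINC00338 holds MIR6516. The mature 5p sequences of the LINC00085 cluster (RefSeq, GRCh38.p14) are shown because LINC00085 was the member called lower in both clones at day 4. Capitals mark the seed, bases 2 to 8, which pairs with target messenger RNAs.
hsa-miR-99b-5p: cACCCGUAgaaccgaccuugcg
hsa-let-7e-5p: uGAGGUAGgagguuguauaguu
hsa-miR-125a-5p: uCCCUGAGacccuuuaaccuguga
The 3 seeds differ from each other. The let-7 family is known for its rise as stem cells differentiate. The annotation of the counts is not given, so whether the counted LINC00085 row spans these microRNA genes is not known. Mature microRNAs were not measured.

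Promoters (300 bases across the start, most of them before it, RefSeq, GRCh38.p14) are shown for LINC00641, which rose in all 3 lines, for LINC00263, the member that separated KO1 from WT, and for LINC00638, which also rose in all 3 lines. Capitals mark matches to 6 motifs searched on both strands: TGTTTAC for forkhead factors such as FOXA2, its variant spelled TGTTTGC, the motif of GATA factors AGATAA, that of T-box factors such as EOMES GGTGTGA, the octamer bound by OCT4 ATGCAAAT, and the SMAD box CAGACA. None of these motifs contains another.
LINC00641, chr14:21206851-21207150, minus strand: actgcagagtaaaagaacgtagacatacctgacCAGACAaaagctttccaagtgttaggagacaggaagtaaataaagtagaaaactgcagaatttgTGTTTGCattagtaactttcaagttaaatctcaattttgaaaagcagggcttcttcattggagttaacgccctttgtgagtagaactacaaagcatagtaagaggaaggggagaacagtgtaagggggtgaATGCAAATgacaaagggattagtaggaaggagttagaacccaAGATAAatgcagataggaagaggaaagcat
LINC00263, as OLMALINC, chr10:100373326-100373625, plus strand: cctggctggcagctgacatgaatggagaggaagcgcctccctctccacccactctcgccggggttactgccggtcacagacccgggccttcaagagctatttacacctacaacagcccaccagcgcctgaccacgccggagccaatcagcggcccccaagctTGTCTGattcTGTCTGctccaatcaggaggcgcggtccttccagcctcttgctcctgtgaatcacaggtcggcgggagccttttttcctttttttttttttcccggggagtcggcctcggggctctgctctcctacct
LINC00638, as VESTAR, chr14:104820951-104821250, plus strand: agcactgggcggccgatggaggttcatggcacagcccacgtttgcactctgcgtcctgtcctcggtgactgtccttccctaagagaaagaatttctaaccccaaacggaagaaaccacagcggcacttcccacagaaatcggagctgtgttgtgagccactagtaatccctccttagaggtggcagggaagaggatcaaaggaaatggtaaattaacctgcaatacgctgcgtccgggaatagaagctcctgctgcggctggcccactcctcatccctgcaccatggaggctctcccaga
The LINC00641 window held 4 of the 6, namely the variant forkhead motif, the GATA motif, the octamer and the SMAD box. No other member with a promoter entry held as many. LINC00667 and LINC00152, which also rose in all 3 lines, held 0. Of those that fell in all 3 lines, LINC00277 held 3, LINC00339 and LINC00421 held 1 each, and LINC00116 held 0. The LINC00263 window held only the SMAD box, read on the other strand as TGTCTG, and the LINC00638 window held none. Of all 35116 promoters of 300 bases in the table, 3.42% held the forkhead motif, 3.89% its variant, 10.3% the GATA motif, 3.45% the T-box motif, 1.77% the octamer and 16.9% the SMAD box. Among 32 noncoding members with a promoter entry, 2 held the forkhead motif, 3 its variant, 4 the GATA motif, 4 the T-box motif, 1 the octamer and 11 the SMAD box. A match is a description of these letters and not a bound site.

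Of the 47 members, 35 passed the filter on low counts and were tested, and the other 12 were not. A member is called where its adjusted p from edgeR's quasi-likelihood test, corrected over all 16792 features tested, is below 0.05. Folds are log2 values with the first-named group on top, and SE is the standard error of a log2 fold. Day separated the libraries by the 35 members alone. The first principal component of their log2 CPM took up 72.6% of the variance. Its scores were -2.94 to -1.85 at day 4 and 2.25 to 2.82 at day 0. The second component held 8.21%.

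**Figure D1:**
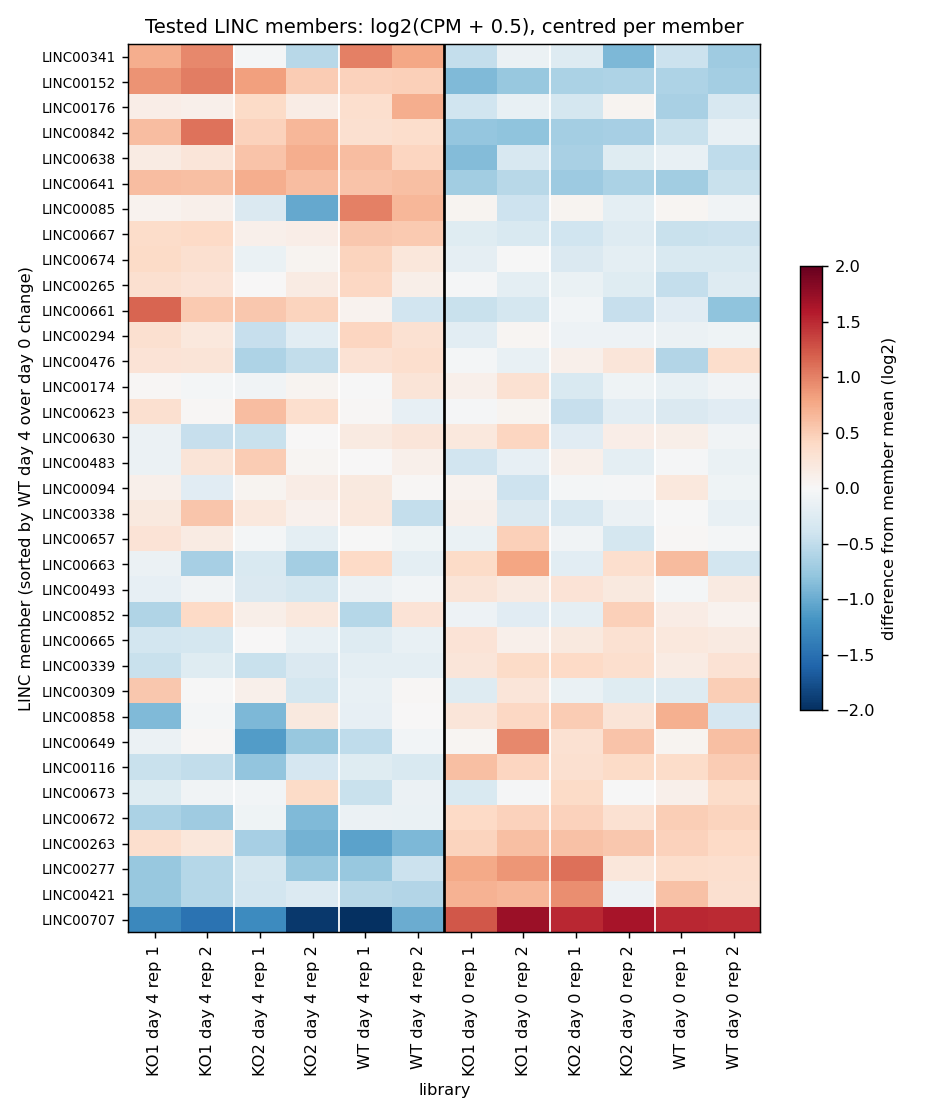
Each row is 1 of the 35 tested members and each column 1 of the 12 libraries, with colour giving log2(CPM + 0.5) as the difference from the member's mean over the libraries. The black line divides day 4 from day 0, and members are sorted by the WT fold, so LINC00341 and LINC00152 stand at the top and LINC00707 at the bottom.

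In WT cells, day 4 was compared with day 0 to describe these RNAs without the knockout. Medium, Activin A and time in culture differed together between the days, so their parts cannot be told apart. LINC00641, LINC00667, LINC00152 and LINC00341 were among the members that rose, and LINC00707, LINC00263 and LINC00116 among those that fell. In all, 10 members rose, 7 fell and 18 were not called. The 17 called members were 48.6% of the 35 tested, while 49.6% of all features were called, 24.3% higher and 25.4% lower, so the members changed about as often as other genes. Their median log2 fold was 0.058, against -0.0038 over all features.

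LINC00641 had 44.3 and 45.3 CPM at day 4, against 18.2 and 21.7 CPM at day 0 in WT. The days did not overlap, and the log2 fold was 1.16 (SE 0.11, adjusted p = 4.0e-07 by edgeR). LINC00667 had 26.4 and 26.0 CPM at day 4, against 13.0 and 13.2 CPM at day 0 (log2 1.00, SE 0.11). Both kept their call under all 18 alternative settings, as did 3 well counted members with smaller rises. These were LINC00674 (log2 0.66), LINC00265 (0.65) and LINC00294 (0.48).

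LINC00707 had the lowest fitted fold of the 35 members in WT. It had 0.152 and 0.966 CPM at day 4, against 7.84 and 7.69 CPM at day 0 (log2 -3.70, SE 0.40, adjusted p = 1.93e-06 by edgeR). The day 4 replicates differed from each other, yet both lay far below both day 0 libraries. The fold was log2 -5.57 without WT day 4 replicate 2 and -2.98 without WT day 4 replicate 1. The name LINC00707 is also an older name of LINP1, so the transcript behind this row is uncertain. LINC00263 had 3.51 and 4.06 CPM at day 4 and 11.1 and 10.6 CPM at day 0 (log2 -1.51, SE 0.17, adjusted p = 2.42e-06). LINC00116, the mitoregulin transcript, had 6.17 and 5.92 CPM at day 4 and 9.67 and 10.8 CPM at day 0 (log2 -0.77, SE 0.17).

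LINC00152, LINC00341 and LINC00176 also rose and had low counts at day 0. CYTOR, the present name of LINC00152, is best known from tumour cells, where it is linked to proliferation. It had 22 counts in the WT day 4 libraries together and 2 in those of day 0, a 9.41-fold ratio (95% counting interval 2.31 to 82.5). LINC00341 had 35 counts against 3, a ratio of 9.98 (3.15 to 50.7). The separate SYNE3 row rose as well, by log2 1.64 (SE 0.32). LINC00176 had 1.07 and 1.54 CPM at day 4 and 0.290 and 0.494 CPM at day 0 (log2 1.68). Its adjusted p of 0.00565 became 0.0637 without WT day 4 replicate 2. LINC00277 and LINC00421 fell to counts below the floor of 3. LINC00277, named EWSAT1 from work on Ewing sarcoma, had 2 counts at day 4 and 14 at day 0, a ratio of 8.18 (1.88 to 74.2). Its call was lost when WT day 4 replicate 1 was left out (adjusted p = 0.137), and with either WT day 0 library left out (0.0672 and 0.0825). LINC00421 had 2 counts against 16, a ratio of 9.35 (2.20 to 83.9), with an adjusted p of 0.0534 without WT day 4 replicate 2.

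The 4 other called members in WT had less firm calls. LINC00085 had 4.27 and 3.28 CPM at day 4 and 1.93 and 1.76 CPM at day 0 (log2 1.03, adjusted p = 0.0116). That became 0.0883 without WT day 4 replicate 1 and 0.0812 without WT day 0 replicate 2. LINC00638 had 1.83 and 1.54 CPM at day 4 and 0.871 and 0.564 CPM at day 0 (log2 1.26, adjusted p = 0.0157). Its adjusted p was 0.0781 and 0.154 without those same libraries. LINC00339 (log2 -0.45) and LINC00665 (log2 -0.42) fell slightly, with their highest adjusted p at 0.112 and 0.147 when a WT library was left out.

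**Figure D2:**
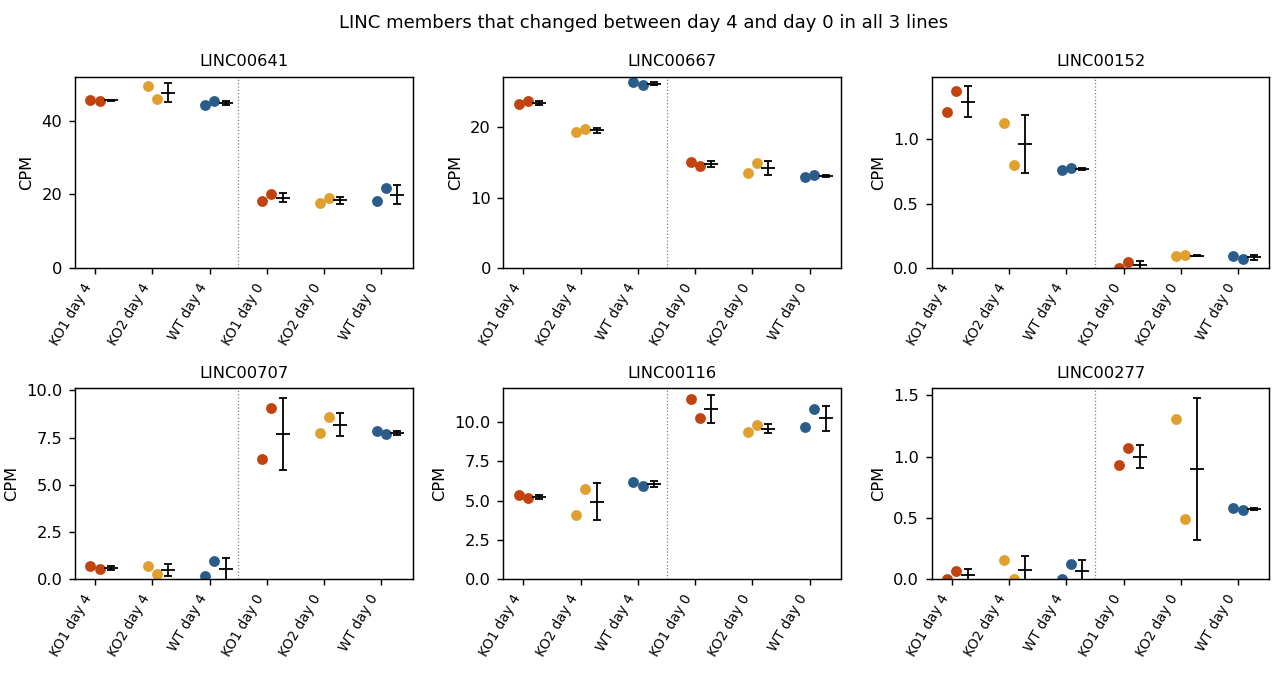
Points are CPM in each library and bars the mean ± SD of 2 libraries, for 6 of the 9 members called in the same direction in KO1, KO2 and WT. Day 4 stands left of day 0 in each panel, and in none of the 6 panels do the day 4 and day 0 points overlap.

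The same comparison in the clones gave similar totals. KO1 had 20 called members at day 4 against day 0, 10 higher and 10 lower, or 57.1% of those tested, against 58.4% of all features, 29.1% higher and 29.3% lower. KO2 had 16, 6 higher and 10 lower, or 45.7% of those tested, against 50.7% of all features, 25% higher and 25.7% lower. The median log2 fold of the members was 0.17 in KO1 and -0.0039 in KO2, against 0.0023 and -0.0027 over all features. Without KO1 day 0 replicate 2, 19 members were called in KO1. Without KO2 day 0 replicate 1, 10 were called in KO2.

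In all, 9 members were called in the same direction in all 3 lines. The share of all features called the same way in all 3 lines is not given here. This count is therefore not a result about the members as a set. LINC00152, LINC00638, LINC00641 and LINC00667 rose, and LINC00116, LINC00277, LINC00339, LINC00421 and LINC00707 fell. Some members reached the limit of 50 summed counts only through the day where they were high. Among them were LINC00152, LINC00176, LINC00341 and LINC00842 through day 4. Through day 0 they were LINC00277, LINC00421, LINC00663, LINC00672 and LINC00707. Their choice thus depended on the days compared, and their calls between days are a description. LINC00641 had 45.7 and 45.5 CPM in KO1 and 49.5 and 45.9 CPM in KO2 at day 4. At day 0 it had 18.2 and 20.0 CPM in KO1 and 17.8 and 19.1 CPM in KO2. Every day 4 library lay above every day 0 library, and the log2 folds were 1.25 (SE 0.10) in KO1 and 1.37 (SE 0.11) in KO2. LINC00707 had 0.690 and 0.550 CPM in KO1 and 0.722 and 0.267 CPM in KO2 at day 4, against 6.36 and 9.06 CPM in KO1 and 7.76 and 8.61 CPM in KO2 at day 0. Its folds were log2 -3.64 and -4.08. Over the 18 settings they ran from -3.87 to -3.35 in KO1 and from -4.88 to -3.48 in KO2. The ends of the KO2 range came from leaving out replicate 1 or 2 of KO2 at day 4. LINC00152 had 34 counts at day 4 and 1 at day 0 in KO1, a ratio of 53.0 (95% counting interval 8.88 to 2153), and 26 against 2 in KO2, a ratio of 9.91 (2.48 to 86.2).

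LINC00277 had 1 count at day 4 and 41 at day 0 in KO1, a ratio of 26.3 (4.47 to 1065), and 2 against 19 in KO2, a ratio of 12.5 (3.01 to 110). LINC00421 had 1 count against 35 in KO1, a ratio of 22.5 (3.78 to 913). In KO2 LINC00421 had 0.160 and 0.201 CPM at day 4 and 1.12 and 0.293 CPM at day 0, and its call was lost without KO2 day 0 replicate 1 (adjusted p = 0.641) or either KO2 day 4 library (0.124 and 0.110). The LINC00277 call in KO2 was lost when KO2 day 4 replicate 2 or KO2 day 0 replicate 1 was left out (adjusted p = 0.0616 and 0.0988). The LINC00638 call in KO1 was lost without KO1 day 4 replicate 2 or KO1 day 0 replicate 1 (0.0913 and 0.0991), and that in KO2 without KO2 day 0 replicate 1 (0.0696). LINC00116 fell by log2 -1.04 in KO1 and -0.95 in KO2, and LINC00339 by log2 -0.68 and -0.76.

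Of the 3 tested members on a list of symbols since given to small-protein genes, LINC00116 fell in all 3 lines and LINC00493 in both clones. That list holds only part of the members now entered as protein-coding. Of the others, LINC00085, LINC00176 and LINC00341 were called higher at day 4 in WT. LINC00672 was called lower in both clones, and LINC00094 was not called. LINC00493 had 18.2 and 19.5 CPM in KO1 and 16.8 and 15.98 CPM in KO2 at day 4, against 24.5 and 23.3 CPM in KO1 and 24.9 and 23.5 CPM in KO2 at day 0. The folds were log2 -0.34 in KO1 (adjusted p = 0.0150) and -0.56 in KO2 (adjusted p = 0.00089). In WT it had 18.9 and 19.8 CPM at day 4 and 19.9 and 23.2 CPM at day 0 (log2 -0.16, adjusted p = 0.249). The KO1 call was lost without KO1 day 4 replicate 1 (adjusted p = 0.115). The differences between responses were not called for LINC00493. LINC00483 was called in no comparison. It stayed between 1.92 and 4.01 CPM over the 12 libraries.

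LINC00657, or NORAD, binds Pumilio proteins and is known for a role in genome stability. It was the most counted member, with 5739 counts over the 12 libraries, and was called in no comparison with the settings used throughout. Its levels were 40.2 and 37.2 CPM in KO1, 32.1 and 28.8 in KO2 and 32.8 and 31.1 in WT at day 4. At day 0 it had 30.1 and 46.0 CPM in KO1, 31.5 and 25.7 in KO2 and 33.6 and 32.2 in WT. The KO1 day 0 replicates enclosed nearly all other libraries. KO1 day 4 against day 0 gave log2 0.02 (adjusted p = 0.934), but -0.25 (adjusted p = 0.0413) when KO1 day 0 replicate 1 was left out and 0.37 (adjusted p = 0.00818) when its replicate 2 was left out. The direction of LINC00657 in KO1 therefore rested on a single library. KO2 against KO1 at day 4 was called under 4 settings, with adjusted p of 0.00286 to 0.0450, and KO1 against WT at day 4 under 3, with 0.0320 to 0.0386. Of the 3 members of a list of RNAs linked to growth, stress and genome stability, LINC00657 was not called, LINC00152 rose in all 3 lines, and LINC00473 was not tested. LINC00094 was also called in no comparison, with 8.13 to 12.7 CPM over the libraries.

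LINC00265, LINC00294, LINC00341 and LINC00674 were called higher at day 4 in KO1 and WT and not in KO2, and the KO1 calls of LINC00265 and LINC00294 were lost under 6 settings each. LINC00665 was called lower in KO1 and WT. Some members were called between days in the clones and not in WT. LINC00842 and LINC00672 were called in both clones, LINC00630, LINC00661 and LINC00663 in KO1, and LINC00476, LINC00623 and LINC00649 in KO2. These patterns depend on the setting. LINC00649 was also called lower in WT under 5 settings (adjusted p of 0.0243 to 0.0298) and in KO1 under 4 (0.000602 to 0.0461), and LINC00661 was called higher in KO2 under 5 (0.0210 to 0.0453). LINC00842 had 33 counts at day 4 and 2 at day 0 in KO1, a ratio of 25.7 (95% counting interval 6.57 to 221), and 25 against 2 in KO2, a ratio of 9.53 (2.38 to 83.0). In WT it had 0.686 and 0.708 CPM at day 4 and 0.193 and 0.353 CPM at day 0. LINC00672 had 0.172 and 0.137 CPM at day 4 and 0.878 and 0.933 CPM at day 0 in KO1. It had 0.481 and 0.0669 CPM at day 4 and 0.935 and 0.783 CPM at day 0 in KO2, where the adjusted p was 0.311 with KO2 day 4 replicate 2 left out and 0.126 and 0.0643 with either KO2 day 0 library left out. LINC00661 rose by log2 1.77 in KO1, while LINC00630 fell by -0.70 and LINC00663 by -1.93. The calls of LINC00630 and LINC00663 were lost without KO1 day 0 replicate 2, at adjusted p = 0.0634 and 0.0777, and without KO1 day 4 replicate 2, at 0.176 and 0.208. In KO2, LINC00623 rose by log2 0.97, LINC00476 fell by -0.93 and LINC00649 by -1.69. The LINC00476 call was lost under 9 settings, with a highest adjusted p of 0.164, and that of LINC00623 without KO2 day 4 replicate 1 (0.0603) or KO2 day 0 replicate 1 (0.0759). A call in 1 line and not in another is not a test of the difference, which the tests of responses below address.

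At day 4, the knockout clones were set against WT to ask what each clone does during differentiation. Both comparisons use the same 2 WT libraries, so their values are given side by side. In KO1, LINC00263 and LINC00661 were higher than in WT and LINC00085 lower. These 3 were 8.57% of the tested members, against 19.9% of all features called, 10.5% higher and 9.42% lower. The median log2 fold of the members was -0.051, and 0.0085 over all features. In KO2, LINC00085, LINC00294, LINC00341, LINC00476, LINC00667 and LINC00674 were lower and none was higher. These 6 were 17.1% of the tested members, against 28% of all features called, of which 14.5% were lower and 13.5% higher. The median was -0.15 for the members and 0.0094 over all features. Other settings added calls in KO2 against WT. By edgeR, LINC00649 was called lower with no filter, the compared libraries alone and the replicate block (adjusted p = 0.0476, 0.0389 and 0.0483). LINC00661 was called higher with the compared libraries alone (adjusted p = 0.0499), and LINC00623 without either KO1 day 0 library (log2 0.63). Beside these counts, the primitive streak and endoderm markers summed to less in KO2 than in WT, and single genes of that list were higher or lower in KO1. The mesoderm markers summed to more in KO1 and to less in KO2. The neuroectoderm markers, mostly NES, summed to more in both clones, with the values given above. The part of these differences in the members' values was not tested.

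**Figure D3:**
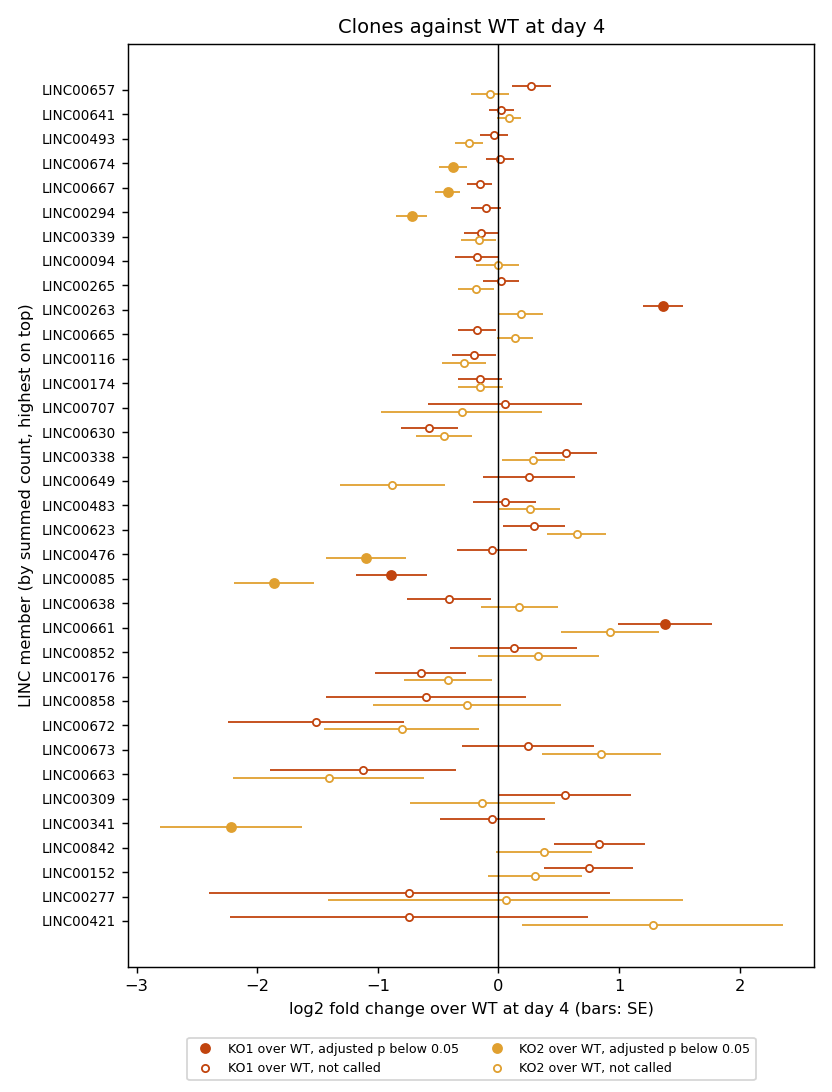
Log2 fold of KO1 and of KO2 over WT at day 4 for each of the 35 tested members, with bars for the SE and filled points for adjusted p below 0.05. LINC00263 and LINC00661 lie to the right in KO1, and LINC00085 is filled for both clones on the left.

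LINC00263, now OLMALINC and named from oligodendrocyte maturation, had 10.2 and 9.41 CPM in KO1, 4.81 and 3.88 in KO2 and 3.51 and 4.06 in WT at day 4. At day 0 it had 11.03 and 12.3 CPM in KO1, 12.3 and 11.7 in KO2 and 11.1 and 10.6 in WT. KO1 at day 4 lay near the day 0 level and apart from the other day 4 libraries. KO1 against WT at day 4 gave log2 1.36 (SE 0.17, adjusted p = 5.11e-05 by edgeR). KO2 against WT gave 0.19, which was not called. KO2 against KO1 gave log2 -1.18 (SE 0.17, adjusted p = 9.29e-05). LINC00263 was not called between days in KO1 (log2 -0.26, adjusted p = 0.129), while it fell by log2 -1.47 in KO2. The difference between the KO1 and WT responses was 1.25 (SE 0.22, adjusted p = 0.00272). The calls of LINC00263 in KO1 against WT, in KO2 against KO1 and in the difference between responses held under every setting tried.

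The coding gene nearest to LINC00263 is SCD, which codes for stearoyl-CoA desaturase, an enzyme of fatty acid synthesis. SCD moved in the same direction in KO1. It had 4477 and 4224 CPM in KO1, 2002 and 2018 in KO2 and 1402 and 1636 in WT at day 4, and 2253 to 2643 CPM in the 6 day 0 libraries. KO1 against WT at day 4 gave log2 1.52 (SE 0.080, adjusted p = 1.04e-08), and the difference between responses was 1.38 (SE 0.11, adjusted p = 3.29e-06). Unlike LINC00263, SCD was also higher in KO2 than in WT (log2 0.40, adjusted p = 0.00132) and rose between days in KO1 (log2 0.78). HMGCS1 and INSIG1, named after their values were seen, lie elsewhere in the genome and were also highest in KO1 at day 4. HMGCS1, an enzyme of the cholesterol pathway, averaged 2772 ± 78.0 CPM in KO1, 755 ± 115 CPM in KO2 and 532 ± 39.6 CPM in WT at day 4. INSIG1, a sterol-sensing regulator, averaged 260 ± 28.7 CPM in KO1, 36.2 ± 7.998 CPM in KO2 and 33.9 ± 3.27 CPM in WT (SD, n = 2).

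LINC00085 had 1.98 and 2.06 CPM in KO1, 1.44 and 0.669 in KO2 and 4.27 and 3.28 in WT at day 4. At day 0 the 6 libraries lay between 1.29 and 1.98 CPM. The WT day 4 libraries were above all others, and those of the clones stayed within or below the day 0 range or just above it. KO1 against WT gave log2 -0.89 (SE 0.30, adjusted p = 0.0480) and KO2 against WT log2 -1.86 (SE 0.33, adjusted p = 0.00074). The KO2 call held under all 18 settings, while the KO1 call was lost under 9. Leaving out replicate 1 or 2 of WT at day 4 gave adjusted p of 0.255 and 0.0691, and leaving out replicate 1 or 2 of KO1 at day 4 gave 0.198 and 0.170. It was 0.0604 to 0.0621 without a KO2 or WT day 0 library, and DESeq2 gave 0.158. The difference between the KO2 and WT responses was -1.80 (adjusted p = 0.0264), with adjusted p of 0.0529 to 0.140 without KO2 day 4 replicate 2, WT day 4 replicate 1 or any KO2 or WT day 0 library. For KO1 the difference between responses was -0.69 and not called (adjusted p = 0.364). The LINC00085 locus overlaps HAS1 on the opposite strand. HAS1, a hyaluronan synthase gene, had 1.12 and 1.03 CPM in KO1, 2.49 and 2.67 in KO2 and 0.914 and 1.54 in WT at day 4.

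LINC00294 had 20.6 and 19.2 CPM in KO1, 11.8 and 14.1 in KO2 and 22.3 and 20.5 in WT at day 4. At day 0 it had 14.2 and 16.9 CPM in KO1, 15.2 and 15.3 in KO2 and 15.1 and 15.5 in WT. KO2 lay below WT and below KO1 without overlap. The folds were log2 -0.72 against WT (SE 0.13, adjusted p = 0.000772) and -0.61 against KO1 (SE 0.13, adjusted p = 0.00295), and both held under all 18 settings. The difference between the KO2 and WT responses was -0.71 (adjusted p = 0.0202), with adjusted p of 0.0541 to 0.0913 without KO2 day 4 replicate 1, WT day 4 replicate 1 or any KO2 or WT day 0 library. The nearest coding gene, TCP11L1, lies on the same strand and was lower in KO2 as well. It had 15.4 and 16.6 CPM in KO2 and 30.3 and 26.4 CPM in WT at day 4 (log2 -0.82, adjusted p = 0.000887), with a difference between responses of -0.95 (adjusted p = 0.0101).

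**Figure D4:**
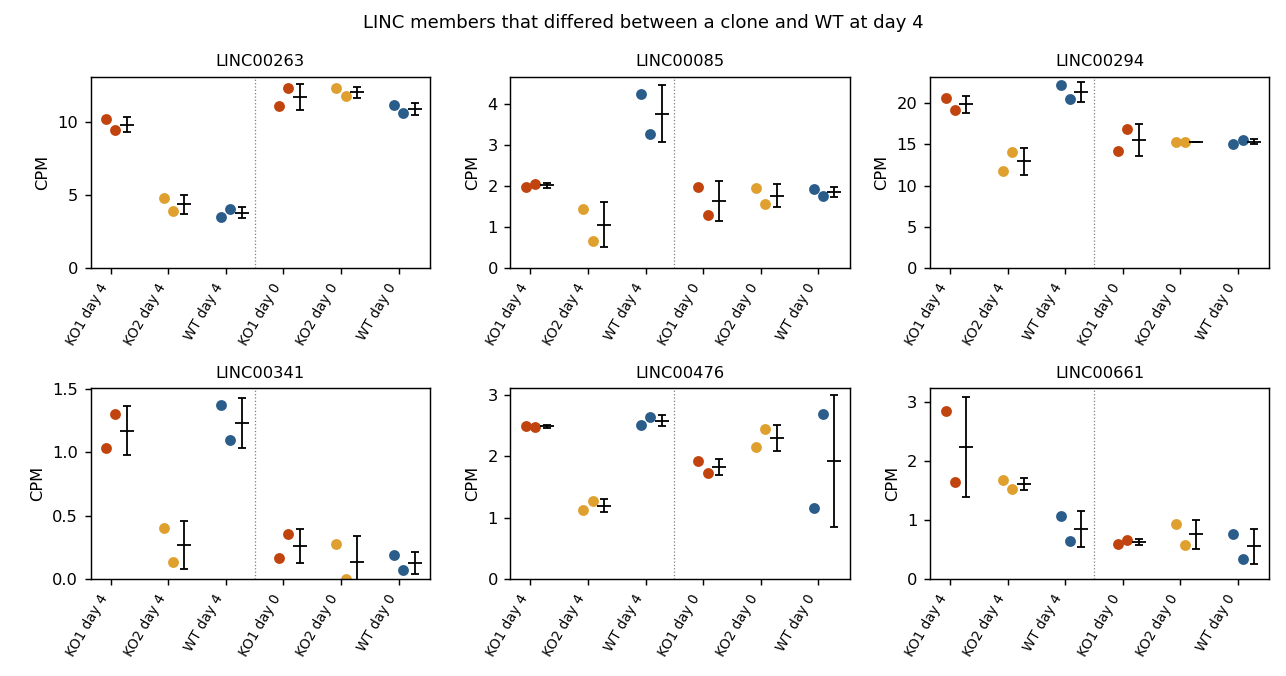
CPM in each library (points) with mean ± SD of 2 libraries (bars) for 6 members called in at least 1 clone against WT at day 4, with day 4 to the left. LINC00263 is high at day 4 in KO1, LINC00294, LINC00341 and LINC00476 are low at day 4 in KO2, and LINC00085 is high at day 4 in WT.

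LINC00341 had 1.03 and 1.31 CPM in KO1, 0.401 and 0.134 in KO2 and 1.37 and 1.09 in WT at day 4. KO2 was lower than WT by log2 -2.22 (SE 0.59, adjusted p = 0.0114) and lower than KO1 by log2 -2.17 (adjusted p = 0.0155). Without KO2 day 4 replicate 2 the adjusted p was 0.151 and 0.186 for these 2 comparisons. It was 0.0775 against WT without WT day 4 replicate 1 and 0.110 against KO1 without KO1 day 4 replicate 2. For LINC00341, DESeq2 gave adjusted p of 0.0623 against WT and 0.0828 against KO1. The SYNE3 row averaged 1.44 ± 0.235 CPM in KO2 and 2.97 ± 0.649 CPM in WT at day 4 (SD, n = 2), a fold of log2 -1.04 (adjusted p = 0.0132 by edgeR). LINC00476 lies across ERCC6L2 on the opposite strand. It had 2.5002 and 2.47 CPM in KO1, 1.12 and 1.27 in KO2 and 2.51 and 2.64 in WT at day 4. KO2 was lower than WT by log2 -1.10 (adjusted p = 0.0219) and lower than KO1 by log2 -1.04 (adjusted p = 0.0336), and each call was lost when any of the 4 libraries it compared was left out, with adjusted p of 0.0742 to 0.110 against WT and 0.119 to 0.145 against KO1. For LINC00476, DESeq2 gave adjusted p of 0.0720 against WT and 0.106 against KO1. ERCC6L2 averaged 11.8 ± 1.33 CPM in KO2, 15.8 ± 0.638 CPM in KO1 and 13.2 ± 0.453 CPM in WT (SD, n = 2).

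LINC00667 and LINC00674 were lower in KO2 by a smaller margin. LINC00667 had 23.3 and 23.7 CPM in KO1, 19.3 and 19.8 in KO2 and 26.4 and 26.0 in WT at day 4, and KO2 was lower than WT by log2 -0.42 (adjusted p = 0.00719). That call was lost by a small margin without either KO2 day 4 library, at adjusted p = 0.0515 and 0.0507. LINC00674 had 25.2 and 24.0 CPM in KO1, 17.5 and 19.9 in KO2 and 26.2 and 22.5 in WT. KO2 was lower than WT by log2 -0.38 (adjusted p = 0.0289) and lower than KO1 by log2 -0.39 (adjusted p = 0.0272). The first was lost without KO2 day 4 replicate 1 (adjusted p = 0.196), KO2 day 4 replicate 2 (0.0543) or WT day 4 replicate 1 (0.220). The second was lost without any of the 4 libraries compared, with adjusted p of 0.0529 to 0.201. For LINC00674, DESeq2 gave adjusted p of 0.0683 against WT and 0.0707 against KO1, and edgeR with no filter 0.0506 against WT. LINC00661 had 2.85 and 1.65 CPM in KO1, 1.68 and 1.54 in KO2 and 1.07 and 0.644 in WT at day 4. KO1 was higher than WT by log2 1.38 (SE 0.39, adjusted p = 0.0211). This call was lost without KO1 day 4 replicate 1 or WT day 4 replicate 2, and DESeq2 gave an adjusted p of 0.0957.

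KO2 against KO1 at day 4 called 5 members, LINC00263, LINC00294, LINC00341, LINC00476 and LINC00674, all lower in KO2. They were 14.3% of the tested members, against 25.1% of all features called and 14.3% called lower, and the median of the members was log2 -0.21 against 0.0038 over all features. LINC00649 and LINC00085 were also called lower in KO2 with no filter, with the compared libraries alone and with the replicate block. The count was 10 when either KO1 day 0 library was left out, 3 and 2 when replicate 1 or 2 of KO1 at day 4 was, and 3 when replicate 2 of KO2 at day 4 was.

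The differences between day 4 responses were tested directly. KO1 differed from WT in 2 members, both with a higher response in KO1, which is 5.71% of the tested members, against 9.8% of all features called and 4.99% called higher. Beside LINC00263, the second was LINC00842, whose fitted difference of 3.18 (SE 0.91, adjusted p = 0.0395) came from groups with 33 and 2 counts in KO1. Without KO1 day 0 replicate 2 its adjusted p was 0.0989. LINC00263 alone was called without any single library other than KO1 day 0 replicate 1, without which 3 members were called. KO2 differed from WT in LINC00085, LINC00294 and LINC00667, all with a lower response in KO2, which is 8.57%, against 13.9% of all features called and 7.5% called lower. LINC00667 had a difference of -0.53 (adjusted p = 0.0347), a call lost under 12 of 18 settings. The KO2 count was 5 without either KO1 day 0 library, and 0 or 1 without any of the KO2 or WT libraries of either day except WT day 4 replicate 2.

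At day 0, no member was called in KO1 or in KO2 against WT by edgeR, and none by DESeq2. Of all features, 0.238% were called in KO1 and 0.143% in KO2. At an unadjusted p under 0.05 by edgeR there was 1 member in KO1 and none in KO2, against 9.75% and 4.71% of all features. The largest differences at day 0 rested on few counts, such as LINC00842 with 2 counts in KO1, 2 in KO2 and 7 in WT. Without KO1 day 0 replicate 1, LINC00094 (log2 -0.47, adjusted p = 0.0470) and LINC00657 (log2 0.49, adjusted p = 0.00189) were called in KO1, which then rested on replicate 2 alone.

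Nearest coding genes were compared with the members to see whether pairs moved together. For 26 tested members the nearest coding gene was tested too. In WT, 14 of these members were called between days and 9 of their neighbours were called as well, 4 in the member's direction and 5 in the other. In KO1 it was 16 members and 10 neighbours, 5 each way, and in KO2 10 members and 5 neighbours, 3 in the same direction. Of all features, 49.6% were called in WT, 58.4% in KO1 and 50.7% in KO2, so these counts are near the background. At day 4, LINC00263 with SCD was the pair called in KO1 against WT, out of 3 called members, and LINC00294 with TCP11L1 the pair in KO2 against WT, out of 5. In KO2 against KO1, both of these pairs and LINC00476 with ERCC6L2 were lower together in KO2, out of 5 called members. Of all features, 19.9% were called in KO1 against WT, 28% in KO2 against WT and 25.1% in KO2 against KO1. LINC00341 was paired with GLRX5, because its own entry is SYNE3, so the SYNE3 row was not counted as a neighbour. That row rose between days in WT and KO1 and was lower in KO2 than in WT, as LINC00341 was.

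**Figure D5:**
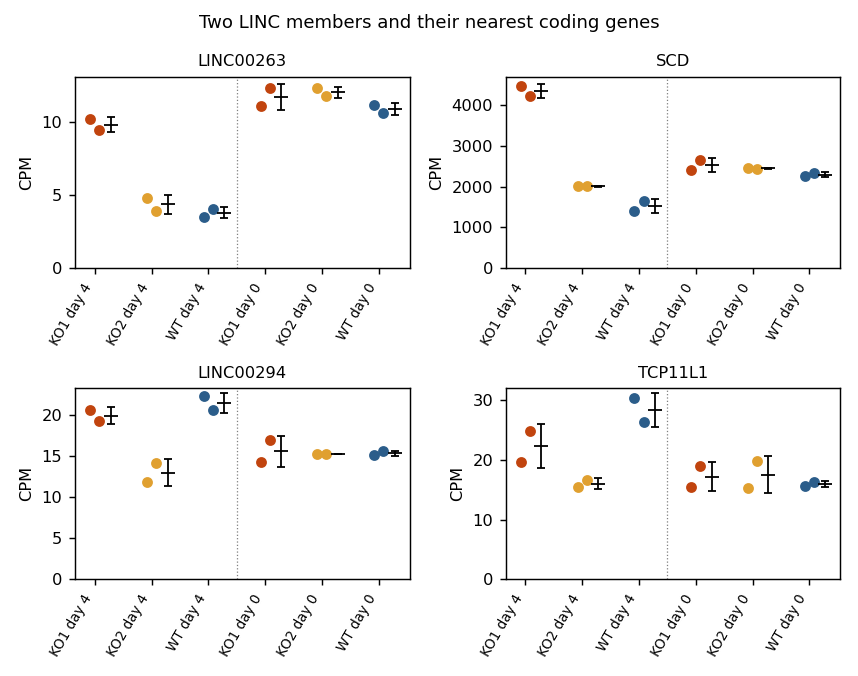
CPM in each library (points) with mean ± SD of 2 libraries (bars) for LINC00263 and its neighbour SCD in the upper row and LINC00294 and its neighbour TCP11L1 in the lower row. Day 4 is to the left. SCD at day 4 in KO1, at 4477 and 4224 CPM, lies above all other libraries, and TCP11L1 at day 4 in WT, at 30.3 and 26.4 CPM, above all other libraries.

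The 12 members that were not tested are LINC00251, LINC00381, LINC00473, LINC00489, LINC00597, LINC00598, LINC00607, LINC00628, LINC00637, LINC00639, LINC00640 and LINC00857. Their highest value in any library was 1.26 CPM, for LINC00598 in WT day 0 replicate 1. LINC00473, a target of cAMP signalling in other human cells, had 0.259 and 0.344 CPM in KO1, 0.401 and 0.401 in KO2 and 0.686 and 0.322 in WT at day 4, and 0.193 to 0.685 CPM at day 0. LINC00489 had 13 counts in WT at day 4 and 2 at day 0, a ratio of 5.56 (95% counting interval 1.26 to 50.7). LINC00857 had 3 counts in KO2 and 20 in KO1 at day 4, a ratio of 6.99 (2.07 to 36.7) with KO2 lower. With no filter on low counts, edgeR called LINC00489 in WT (log2 2.37, adjusted p = 0.0470) and LINC00857 in KO2 against KO1 (log2 -2.71, adjusted p = 0.00844). LINC00597 was called lower between days in KO2 (log2 -2.28, adjusted p = 0.0355). These fitted folds rest on groups with 3 counts or fewer. Between days in KO1, the same fit called LINC00489 (log2 1.69, adjusted p = 0.0242) and LINC00857 (log2 1.76, adjusted p = 0.0202) higher. Several fits with a library left out called LINC00489 and LINC00857 in these comparisons as well.

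The remaining tested members, LINC00174, LINC00309, LINC00338, LINC00673, LINC00852 and LINC00858, were called in no comparison, although LINC00338 was called between days in KO1 under 4 other settings and LINC00858 in each clone under 1. LINC00174 had 3.93 to 6.26 CPM over the 12 libraries and LINC00338 had 2.64 to 5.91 CPM. Of 5 LINC RNAs studied in pluripotent cells, 4 (LINC00458, LINC00545, LINC00678 and LINC01108) had no row of that name, so their levels were not analysed here. Of 4 known microRNA host transcripts, LINC00925 had no row, and LINC00461 and LINC00599 were listed at 0. LINC00617, the other of the first list, was listed at 0 counts in every library and LINC00478 had 25 in all. A row at 0 does not show absence here. Of 40 other named long noncoding RNAs, 37 were among the rows and 16 of these were listed at 0 in every library, among them MALAT1 and NEAT1, which most human cells contain in abundance. Of the 11 that were tested, 1 rose and 4 fell in WT at day 4 against day 0, 4 were higher and 1 lower in KO1 than in WT at day 4, and 1 was higher and 1 lower in KO2. Of all features, 24.3% rose and 25.4% fell in WT, 10.5% were higher and 9.42% lower in KO1, and 13.5% were higher and 14.5% lower in KO2.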

How the data were processed

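Poly(A) RNA-seq of H1 cells gave 12 count files, 2 libraries in each of 6 groups, grouped by the labels; 8 ChIP samples were not analysed here. The deposited values are whole-number read counts per gene, not normalized. Per the submitters' processing notes, the tools named are Bowtie2 2.1.0 and HTSeq 0.6.1 and the build is hg19; for the annotation and the strand setting, the sources used here name nothing. HTSeq's rows that name no gene stayed out of library sizes and tests. They held 29.2% to 30.5% of reads with no feature, 19.3% to 22.2% of low quality, 1.17% to 1.41% ambiguous and 0.115% to 0.171% not aligned.

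Counts were filtered by filterByExpr, scaled by TMM (factors 0.937 to 1.05) and tested in a single fit of 6 groups with edgeR 4.0.16 (R 4.3.3) by its quasi-likelihood test, with Benjamini-Hochberg adjustment over 16792 features. The scripts were tested on simulated data. Nothing in the labels says that the 2 libraries of a group came from separate cultures, so p-values measure the spread between these libraries, which may be technical. Where a group had 3 counts or fewer, the ratio of summed counts is given with an exact counting interval in place of the fitted fold; intervals and floors cover counting error only.

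Members and lists were chosen with earlier results of these data known. Named members are those past adjusted p of 0.05 with a log2 size of at least 1, a mean of at least 1 CPM in the higher group and no overlap, up to 10 each way in WT and 6 elsewhere; the 10 with the highest mean CPM; and list members. Others, and SCD, TCP11L1, HAS1, ERCC6L2, SYNE3, HMGCS1 and INSIG1, were named after their values were seen, as was the LINC00641 promoter. Alternatives were upper-quartile and RLE factors, DESeq2 1.42.0, no filter, a replicate block, a fit of the compared libraries alone, each of 12 libraries left out and a summed count of 200. Names and sequences come from RefSeq tables (GRCh38.p14), not the build of the counts.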

Additional observations from a re-analysis of the deposited data

Results flagged for a closer look

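These members had a day 4 response in a clone that differed from that of WT by edgeR's test of the difference itself. The LINC00263 response was higher in KO1 by 1.25 on the log2 scale (adjusted p = 0.00272), and that of KO2 differed from WT by 0.04 (adjusted p = 0.957). The LINC00842 response was higher in KO1 by 3.18, a value that rests on 2 counts in KO1 and 7 in WT at day 0, and its call was lost under 13 of 17 settings. In KO2 the response was lower by -1.80 for LINC00085, by -0.71 for LINC00294 and by -0.53 for LINC00667. These 3 calls were lost under 7, 6 and 12 of 18 settings. The primitive streak and endoderm markers summed to 1012 to 1254 CPM in KO2 and 4700 to 5219 CPM in WT at day 4, and their part in these differences was not tested.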

How the results depend on the processing

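Of 72 calls of a member in a comparison, 40 held under every alternative, 32 were lost under at least 1, 13 under 5 or more, and 0 reversed. The counts that moved by over 1.5 times were these. With members of at least 200 summed counts, 11 were called in WT between days, 11 in KO1 and 10 in KO2, and 1 in the difference of the KO1 and WT responses. With no filter, 9 were called in KO2 against KO1 and 1 in the KO1 response, and the same numbers, 9 and 1, came from the compared libraries alone. DESeq2 called 1 member in KO1 and 3 in KO2 against WT at day 4, 2 in KO2 against KO1, and 1 in each difference of responses. The cause was not tested, beyond the fewer members or samples that some settings hold. Between days, DESeq2 lost the WT calls of LINC00176, LINC00277, LINC00339, LINC00638 and LINC00665. In KO1 it lost those of LINC00265, LINC00294, LINC00493, LINC00630, LINC00638 and LINC00663, and in KO2 those of LINC00421, LINC00476, LINC00623 and LINC00672.

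Leaving out each library in turn gave 12 to 19 called members in WT between days, 16 to 23 in KO1 and 10 to 18 in KO2. At day 4 it gave 1 to 4 in KO1 and 2 to 8 in KO2 against WT, and 2 to 10 in KO2 against KO1. At day 0 it gave 0 to 2 in KO1 and 0 in KO2 against WT. The differences of responses gave 1 to 3 for KO1 and 0 to 5 for KO2. KO1 against WT at day 4 had 1 without KO1 day 4 replicate 1 or WT day 4 replicate 2. KO2 against WT had 3 without KO2 day 4 replicate 1 or WT day 4 replicate 1 and 2 without KO2 day 4 replicate 2.

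Same-numbered libraries deviated together weakly at most: over 15 pairs the correlation ran from -0.0589 to 0.200, with 2 pairs over 0.1. The highest values were those between the day 0 groups, at 0.200 for KO1 with WT, 0.117 for KO1 with KO2 and 0.0957 for KO2 with WT. With the replicate block, 18, 21 and 17 members were called between days in WT, KO1 and KO2, 3 and 7 in KO1 and KO2 against WT at day 4, 7 in KO2 against KO1, 0 at day 0, and 2 and 3 in the differences of responses. Upper-quartile factors put the share of higher calls in KO1 between days at 42.1%, against 50% with TMM.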
